A study of Mus musculus with 11 samples.

Results

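To describe the chromatin that was accessible in bone marrow innate lymphoid cell precursors (ILCP) and in none of the other lymphoid populations studied, the ATAC-seq peaks of all 9 libraries were merged wherever they shared at least 1 bp, and intervals were kept when both ILCP libraries had a peak there and none of the other 7 libraries did. This left 2611 of 71400 merged intervals, or 3.66%, which are called ILCP-only intervals here. ATAC-seq cuts and tags open chromatin with a transposase, so that a peak marks a stretch of DNA accessible in many cells of the sample. The libraries came from C57BL/6 mice, 4 to 8 weeks old by the study's methods, and comprised 2 from ILCP, 3 from common lymphoid precursors (CLP) of the bone marrow, 2 from natural killer T (NKT) thymocytes and 2 from CD4 single positive (CD4SP) thymocytes. The labels name no treatment. By the study's methods, ILCP were sorted as Lin- IL-7Rα+ α4β7+ eGFP+ cells, where eGFP reports *Zbtb16* from a reporter allele that also carries Cre, and CLP were Lin- IL-7Rα+ cells with intermediate cKit and Sca-1 and high Flt3. The ILCP gate therefore used *Zbtb16* and *Itga4* products, and cell type and tissue cannot be told apart for the 2 thymic populations.

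ILCP are the bone marrow stage from which the 3 helper innate lymphoid cell (ILC) lineages arise. They descend from CLP, which can also give rise to B cells and T cells, and they transiently express PLZF, the zinc finger factor encoded by *Zbtb16*. NKT thymocytes express PLZF too, while CLP and CD4SP thymocytes do not. Accessible intervals far from gene starts are often enhancers, short stretches to which transcription factors bind. Runx factors with their partner CBFβ, TCF-1 encoded by *Tcf7*, GATA3 and RORα are factors known from ILC development, and each family recognises its own short DNA word.

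The letters under the highest ILCP-only peaks are shown first, because the differences from other cell types that passed the main tests below were in the sequence of the intervals. The 200 bases at the centre of each interval (GRCm38.p6, plus strand, 5′ to 3′) are given for the 5 highest-scoring intervals away from gene starts and for the highest one at a gene start. Capitals mark matches, on either strand, to the words of 4 factor families. The Runx word was TGTGGT or TGCGGT. For ETS factors AGGAAGT or CGGAAGT was searched. The word of TCF-1 and LEF-1 (TCF/LEF) was CTTTGAA or CTTTGAT. For GATA factors AGATAA or TGATAA was searched.
Necab1 intron, chr4:14967465-14967664: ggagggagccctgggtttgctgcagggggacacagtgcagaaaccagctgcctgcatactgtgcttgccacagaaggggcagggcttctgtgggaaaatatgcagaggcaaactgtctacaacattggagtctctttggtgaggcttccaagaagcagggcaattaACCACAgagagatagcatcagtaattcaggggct
upstream of Pam, chr1:98165498-98165697: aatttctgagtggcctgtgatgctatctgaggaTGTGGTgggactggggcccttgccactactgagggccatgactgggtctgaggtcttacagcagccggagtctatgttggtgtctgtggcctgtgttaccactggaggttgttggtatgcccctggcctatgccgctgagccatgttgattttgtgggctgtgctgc
Mctp1 intron, chr13:76832305-76832504: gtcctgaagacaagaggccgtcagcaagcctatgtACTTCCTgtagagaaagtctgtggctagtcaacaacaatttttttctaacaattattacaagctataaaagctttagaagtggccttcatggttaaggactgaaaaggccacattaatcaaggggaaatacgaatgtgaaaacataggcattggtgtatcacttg
Uggt2 intron, chr14:119062033-119062232: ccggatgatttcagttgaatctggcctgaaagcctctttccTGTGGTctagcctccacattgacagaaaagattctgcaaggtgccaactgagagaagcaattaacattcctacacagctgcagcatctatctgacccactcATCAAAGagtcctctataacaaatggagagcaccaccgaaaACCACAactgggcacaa
Thrb intron, chr14:18020214-18020413: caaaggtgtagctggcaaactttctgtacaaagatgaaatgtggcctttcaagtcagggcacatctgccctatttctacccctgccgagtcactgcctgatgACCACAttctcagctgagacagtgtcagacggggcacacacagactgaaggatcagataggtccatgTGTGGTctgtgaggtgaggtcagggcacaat
Mfsd6 start site, chr1:52708795-52708994: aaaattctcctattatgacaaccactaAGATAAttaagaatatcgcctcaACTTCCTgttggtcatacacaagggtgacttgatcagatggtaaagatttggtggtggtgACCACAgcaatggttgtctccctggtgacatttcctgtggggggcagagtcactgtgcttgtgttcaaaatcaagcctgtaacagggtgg
All of these except the *Mctp1* sequence held a Runx word (ACCACA is TGTGGT read on the other strand), and those of *Uggt2* and *Thrb* held 2 each. The next sequences come from the highest ILCP-only interval of transcription factor genes of the ILC lineage, of which 7 had such an interval.
upstream of Lmo4, chr3:144283698-144283897: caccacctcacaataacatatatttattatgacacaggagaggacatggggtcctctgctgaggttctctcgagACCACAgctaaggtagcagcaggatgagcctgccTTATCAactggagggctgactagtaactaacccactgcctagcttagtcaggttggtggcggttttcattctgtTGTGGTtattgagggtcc
upstream of Maf, chr8:115904215-115904414: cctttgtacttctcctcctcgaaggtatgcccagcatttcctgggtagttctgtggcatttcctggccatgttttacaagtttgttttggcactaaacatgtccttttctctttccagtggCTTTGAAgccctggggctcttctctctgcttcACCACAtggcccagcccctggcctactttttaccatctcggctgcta
downstream of Ets1, chr9:32883227-32883426: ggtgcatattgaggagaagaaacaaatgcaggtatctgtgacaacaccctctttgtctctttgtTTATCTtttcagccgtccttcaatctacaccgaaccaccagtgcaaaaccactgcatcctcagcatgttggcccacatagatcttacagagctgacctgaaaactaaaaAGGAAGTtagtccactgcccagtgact
Prdm1 intron, chr10:44450824-44451023: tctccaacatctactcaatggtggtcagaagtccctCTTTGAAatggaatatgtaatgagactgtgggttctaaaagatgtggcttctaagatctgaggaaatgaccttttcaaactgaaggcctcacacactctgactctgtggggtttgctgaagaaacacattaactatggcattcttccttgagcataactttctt
upstream of Nfil3, chr13:53000600-53000799: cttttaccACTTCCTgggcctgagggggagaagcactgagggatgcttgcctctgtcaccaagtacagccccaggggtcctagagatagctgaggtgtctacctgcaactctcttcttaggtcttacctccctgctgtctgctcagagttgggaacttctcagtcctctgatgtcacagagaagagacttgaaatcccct
The sequence of *Lmo4* held 2 Runx words and a GATA word, and that of *Maf* held a Runx and a TCF/LEF word. The central 200 bases of the intervals of *Zbtb16* and *Ikzf2* held none of the 4 words and are not printed. A match is a description of the letters and does not show that a factor was bound.

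Of the intervals open in both ILCP libraries, 21004 in all, 12351 (58.8%) were open in at least 1 library of every other cell type. The ILCP-only intervals were 12.4% of the total, close in number to the 2824 intervals (13.4%) that ILCP shared with CLP alone. ILCP shared 672 intervals with NKT alone, 1184 with both NKT and CD4SP, and 57 with CD4SP alone. By the same rule 2774 intervals were open in all 3 CLP libraries and in no other cell type, 1401 in NKT and 1892 in CD4SP, and these CLP-only, NKT-only and CD4SP-only intervals serve for comparison below. The CLP-only number is bounded by CLP replicate 1, the library with the fewest peaks, which had 2893 intervals open in no other cell type where CLP replicates 2 and 3 had 12933 and 12098.

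**Figure D1:**
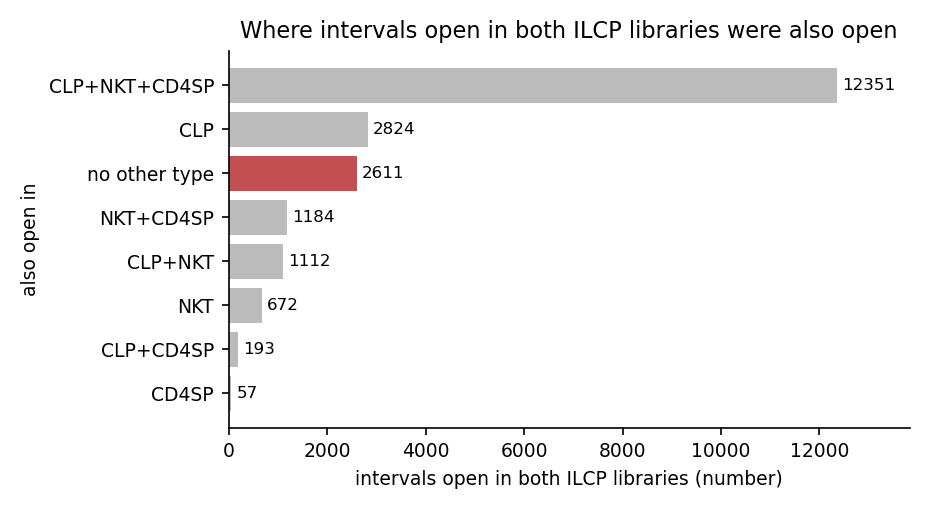
Number of intervals open in both ILCP libraries (x axis) by the other cell types in which they were also open (y axis). The red bar shows the 2611 ILCP-only intervals, next to 2824 shared with CLP alone and 12351 shared with all 3 other cell types.

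The 9 libraries held between 19343 and 41535 peaks. The ILCP libraries held 26328 and 25771 peaks, and CLP replicate 1, with 19343, stood apart from the other CLP libraries, which held 41535 and 40136. The methods state a sequencing depth of 30000000 to 50000000 reads, but the number behind each library is not given in the sources used here, and a missing peak means only that no peak was called. Leaving out each library of another cell type in turn gave 2612 to 2771 ILCP-only intervals, with 2612 without CLP replicate 1, and a rule that used a single ILCP library gave 3582 or 3626. When the lower-scoring 50% of peaks were dropped from every library the number was 1476. *Zbtb16*, the gene of the sorting reporter, had 6 and 7 of its 16 intervals open in the ILCP libraries, 8 and 9 in NKT, 2 and 2 in CD4SP, and 0, 6 and 1 in CLP. Of the 44 intervals nearest to 10 T cell genes, 6 and 9 were open in the ILCP libraries, against 29 and 34 in CD4SP. The CLP libraries were like ILCP in this, with 6, 9 and 9. *Cd3e*, *Cd3g* and *Cd6* had no open interval in either ILCP library, while *Cd3d* and *Cd4* each had 1 of 3, and *Lck* and *Themis* each had 2 of 6, open in both. *Id2*, *Gata3*, *Tox* and *Tcf7*, known from ILC development, had fewer open intervals in ILCP than in the thymic libraries. *Id2* had 12 and 9 of 48 open in the ILCP libraries and 22 to 26 in the thymic ones. For *Gata3* it was 10 and 11 of 44, against 20 to 30. *Tox* had 2 of 42 intervals open in each ILCP library and between 16 and 32 in the thymic libraries, and *Tcf7* had 2 of 13 open in each ILCP library and between 7 and 13 in the thymic ones. The CLP libraries had 13, 23 and 26 open for *Id2*, 7, 15 and 19 for *Gata3*, 5, 10 and 7 for *Tox* and 1, 2 and 3 for *Tcf7*.

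The peaks of the ILCP-only intervals were mostly of middle to low rank. Each peak has a score from the peak caller, and its percentile is the share of the peaks of the same library with a lower score. ILCP-only intervals had a median percentile of 42.6 in ILCP replicate 1 (lowest 0.0608, highest 98.9) and of 42.7 in replicate 2 (lowest 0.00388, highest 98.6). The other intervals open in both ILCP libraries had medians of 61.6 and 60.8. Only 1.76% and 1.46% of the ILCP-only intervals were among the highest-scoring 10% of peaks in the 2 libraries, against 13.9% and 13.7% of the other intervals. The 2 percentiles of an ILCP-only interval differed by a median of 10.1 points, and the merged intervals had a median width of 851 bp, with a range from 460 to 2417 bp. These values come from the peaks that chose the intervals and are descriptions.

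**Figure D2:**
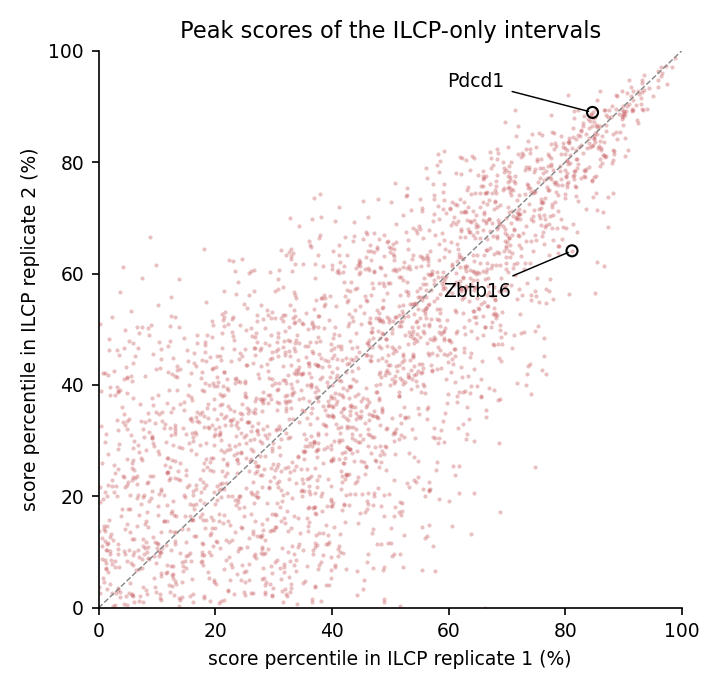
Score percentile of each of the 2611 ILCP-only intervals in ILCP replicate 1 (x axis, %) and replicate 2 (y axis, %), 1 point per interval, with the line of equal values dashed. Points lie close to the line at high percentiles and spread widely at low ones, and circles mark the *Zbtb16* interval (81.2 and 64.1) and the highest *Pdcd1* interval (84.7 and 88.9).

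Whether an ILCP-only interval would be seen again was asked by choosing in 1 library and looking in the other. Of the 3608 intervals open in ILCP replicate 1 and in no library of another cell type, 72.4% were open in ILCP replicate 2 (95% Wilson interval, 70.9 to 73.8%). Of the 3565 chosen in the same way from replicate 2, 73.2% were open in replicate 1 (71.8 to 74.7%). These shares were lower than for the intervals of the first library that were also open elsewhere, 84.7% and 86.9%, and higher than for all merged intervals, 34.6% and 35.5%. The share rose with the score of the first peak. Among intervals chosen in replicate 1 it was 46.7% for score percentiles from 0 to 25, 79.9% from 25 to 50, 98.6% from 50 to 75 and 100% (294 of 294) above 75. The Wilson ranges cover counting error only.

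Most ILCP-only intervals lay far from transcript starts, in introns or between genes. The midpoint was within 1 kb of a protein-coding transcript start in 60 of 2611 (2.30%), in an exon in 81 (3.10%), in an intron in 1297 (49.7%) and between genes in 1173 (44.9%). Over all intervals the share at starts was 19.0%, and among intervals open in all 9 libraries it was 63.5%. The cell-type-specific intervals of the other populations resembled the ILCP-only ones in this, with 3.89% at starts for CLP-only, 2.78% for NKT-only and 2.06% for CD4SP-only intervals. The median distance to the nearest start was 38383 bp for ILCP-only intervals, against 28572.5 bp for CLP-only, 25838 bp for NKT-only and 28719 bp for CD4SP-only intervals and 17034.5 bp for all. In 25.2% of the ILCP-only intervals the nearest start was more than 100 kb away. They also stood apart from other accessible chromatin: the median gap to an interval open in another cell type was 8984 bp, against 7270, 5527 and 5110 bp for the CLP-only, NKT-only and CD4SP-only intervals measured in the same way. Only 9.38% had such a neighbour within 1 kb.

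To compare sequence and position between cell types with the library as the unit, 6 measures were taken in each library over its type-private intervals, which are those open in it and in no library of another cell type. Runx words were found in the central 200 bp of 57.2% and 57.3% of these intervals in the 2 ILCP libraries. In the other 7 libraries the share lay between 21.6 and 33.0%, with 21.6 and 21.8% in CD4SP, 28.6 and 27.3% in NKT and 33.0, 30.0 and 29.9% in CLP. The ILCP libraries were thus above every other library, with a mean of 57.2% ± 0.130 (SD, n = 2) against 27.5% ± 4.29 (SD, n = 7). The 2 ILCP values were taken largely over the same intervals, so that their SD is not a spread between independent measurements. The difference of 29.8 points gave p = 0.0278 in a two-sided exact permutation test over the libraries, which is the smallest p that 36 arrangements allow, and an adjusted p of 0.0417 over the 6 measures (Benjamini-Hochberg). The 4 words tested, of 13 searched, were chosen with earlier results of these data known. The adjustment covers the 6 measures and not the other words.

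TCF/LEF words were held by 24.0 and 24.1% of the private intervals of the ILCP libraries. NKT followed with 19.4 and 16.9%, CD4SP had 14.998 and 12.53%, and CLP had 4.94, 5.56 and 5.35%. GATA words were held by 30.8 and 30.4% in ILCP, 24.4 and 19.8% in NKT, 19.2 and 17.0% in CD4SP and 11.99, 13.5 and 13.4% in CLP. ETS words went the other way, with 10.8 and 10.996% in ILCP against 20.6 and 16.1% in CD4SP, 19.4 and 14.1% in NKT and 24.9, 23.8 and 24.0% in CLP. For each of these 3 words the ILCP libraries did not overlap with the other 7, and each gave p = 0.0278 and an adjusted p of 0.0417 in the exact permutation test. The mean differences, ILCP minus the other libraries, were 12.7 points for TCF/LEF, 13.5 for GATA and -9.51 for ETS.

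Base composition did not pass the test, and position passed it only under other definitions of distal. The share of private intervals more than 1 kb from a start was 97.8% in both ILCP libraries and between 92.3 and 97.9% in the others (adjusted p = 0.2, exact permutation test), a difference of 2.73 points. With a limit of 5 kb the difference was 7.30 points and with the starts of all annotated genes 4.36 points, and both passed (adjusted p = 0.0333, exact permutation test). The median GC content was 46.5% in both ILCP libraries and between 46 and 48.5% in the others (adjusted p = 0.25, exact permutation test). The 7 other libraries belong to 3 cell types and are not 7 independent cell types. Libraries of 1 cell type also share private intervals: 2611 of the 3608 and 3565 in the ILCP libraries were the same. Their values are therefore not independent, and p describes the separation of these 9 values, not a spread between independent samples. No call was left when any of the 9 libraries was removed, with adjusted p of 0.0536 without a CD4SP or NKT library, 0.0714 to 0.107 without a CLP library and 0.188 without an ILCP library (exact permutation test). Without any 1 CLP library the TCF/LEF difference gave p = 0.0714, and without CLP replicate 3 the ETS difference did too, above the smallest p of 0.0357 that 28 arrangements allow (exact permutation test). With the 4 words tied at the smallest p, the lowest adjusted p is 0.0536 without a library of another cell type and 0.188 without an ILCP library. The losses without a CD4SP, NKT or ILCP library were at these limits and say nothing about stability, while those without a CLP library went beyond them. In every omission ILCP still lay outside the range of the other libraries for all 4 words. Over all 9 omissions the differences ran from 27.7 to 30.7 points for Runx, 11.3 to 14.3 for TCF/LEF, 12.7 to 14.8 for GATA and -9.96 to -8.75 for ETS words. Without CLP replicate 1, the library with the fewest peaks, the Runx difference was 30.7 points (adjusted p = 0.0714, exact permutation test). Within bone marrow, ILCP against CLP alone gave differences of 26.3 points for Runx, 18.8 for TCF/LEF, 17.6 for GATA and -13.3 for ETS words, where 10 arrangements allow no p below 0.1 (exact permutation test). Over the whole interval in place of its central 200 bp the Runx difference was 17.1 points and the GATA difference 7.22 points, and none of the 4 was called (adjusted p from 0.0833 to 0.125, exact permutation test).

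**Figure D3:**
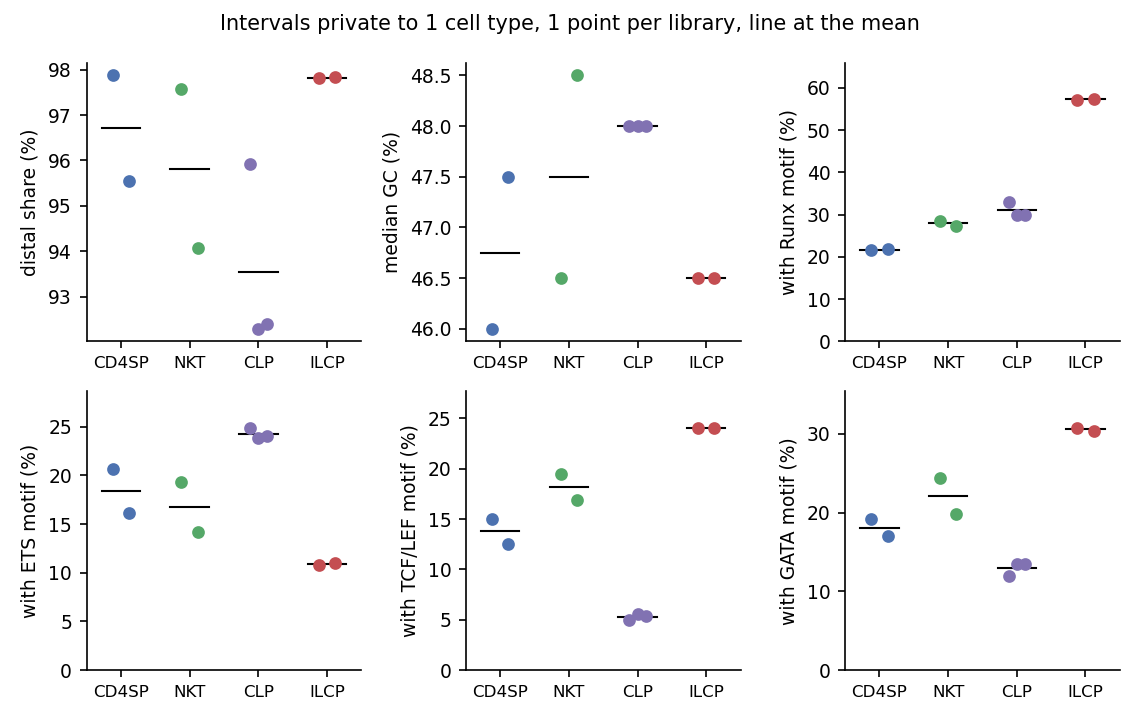
The 6 measures of the intervals private to 1 cell type, with 1 point per library and a line at the mean of each cell type. The 2 ILCP libraries lie above the other 7 for Runx (57.2 and 57.3%), TCF/LEF and GATA words and below them for ETS words, while the distal share and the median GC overlap; the axes of these 2 measures do not start at 0.

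Within the 2611 ILCP-only intervals themselves, 1538 (58.9%) held a Runx word, 809 (31.0%) a GATA word, 661 (25.3%) a TCF/LEF word and 281 (10.8%) an ETS word. Over all 71400 intervals the shares were 28.6, 15.8, 10.3 and 17.6% in the same order, and after weighting all intervals to the GC content of the ILCP-only ones they were 31.2, 19.95, 12.8 and 18.9%. The Runx word was almost always TGTGGT, which was in 57.5% of ILCP-only intervals, while TGCGGT was in 2.57%. Repeated Runx words were common: 471 ILCP-only intervals (18.04%) held at least 2, against 6.09% of CLP-only, 3.71% of NKT-only and 2.85% of CD4SP-only intervals. Only 16.2% of ILCP-only intervals held none of the 4 words, against 33.4% of NKT-only, 41.3% of CLP-only, 42.7% of CD4SP-only and 45.5% of all intervals. From the lowest-scoring to the highest-scoring 25% of ILCP-only intervals the Runx share was 54.5, 62.6, 58.1 and 60.3%, and the ETS share was 13.02, 11.03, 11.04 and 7.96%.

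The words were concentrated at the middle of the intervals. In the windows of 100 bp on either side of the centre, a mean of 34.7% of ILCP-only intervals held a Runx word, against 8.48% per window in the flanks, a ratio of 4.10. The same ratio was 2.13 for CLP-only, 1.92 for NKT-only and 1.41 for CD4SP-only intervals. TCF/LEF words were 3.01 times as frequent at the centre of ILCP-only intervals as in the flanks, 2.61 times in NKT-only, 1.89 times in CD4SP-only and 0.606 times in CLP-only intervals. GATA words showed a ratio of 1.46 in ILCP-only, 1.29 in NKT-only, 0.869 in CD4SP-only and 0.551 in CLP-only intervals. For ETS words the ratio was lowest in ILCP-only intervals, 2.20, against 4.81, 3.49 and 3.75 in CLP-only, NKT-only and CD4SP-only intervals.

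**Figure D4:**
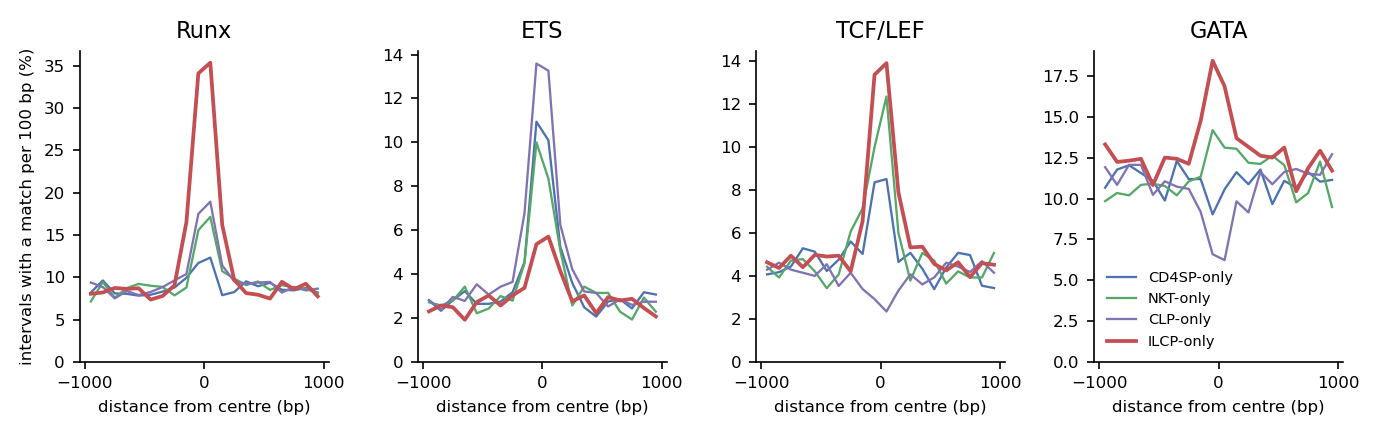
Share of intervals with a match in each 100 bp (y axes, %) by distance from the interval's centre (x axes, bp), for 4 words and the 4 sets of cell-type-specific intervals. The ILCP-only intervals (red) have the highest central peak for Runx, TCF/LEF and GATA words and the lowest for ETS words, and the sets run together in the flanks.

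The Runx share also differed among the intervals that ILCP shared with other populations. Away from gene starts it was 58.7% in ILCP-only intervals (n = 2551), 52.5% in those shared with NKT alone (n = 663), 46.6% in those shared with CLP alone (n = 2444) and 29.1% in those shared with CD4SP alone (n = 55). It was 44.8% in intervals shared with NKT and CD4SP (n = 1149), 39.96% with CLP and NKT (n = 911), 33.1% with CLP and CD4SP (n = 175) and 29.8% with all 3 other cell types (n = 5594). TCF/LEF words divided these intervals differently. They were in 25.4% of ILCP-only intervals and in 31.1% of those shared with NKT alone, but in 8.55% of those shared with CLP alone. GATA words gave 31.1, 32.6 and 18.2% in the same order. The words did not favour the same intervals: among ILCP-only intervals a TCF/LEF word was in 23.1% of those with a Runx word and 28.4% of those without, and a GATA word in 28.2 and 35.04%. Both a Runx and a GATA word were held by 433 intervals, and both a Runx and a TCF/LEF word by 356.

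A comparison of all 8192 words of 7 letters, each taken with its reverse complement, needed no choice of factor. ILCP-only intervals were set against the 6067 CLP-only, NKT-only and CD4SP-only intervals together, and the words named here were chosen by their difference. The 5 words with the largest excess all held the Runx word. The first was TGTGGTT, in 27.5% of ILCP-only and 11.7% of the other intervals, and the second was TGTGGTC, in 19.8 and 5.41%. GTGGTCA followed in rank 6, with 14.1 and 3.13%, and GATGTGG in rank 8, with 15.5 and 6.05%. The TCF/LEF word ATCAAAG was in rank 10, with 13.7 and 5.29%. Such ranks depend on the mix of the 3 sets, of which 2774 intervals were CLP-only. TCF/LEF words were in 5.05% of CLP-only, 20.8% of NKT-only and 15.3% of CD4SP-only intervals. At the other end of the list were purine-rich words of the kind bound by PU.1 and other ETS factors. GAGGAAG was in 8.39% of ILCP-only and 19.9% of the other intervals, and AGGAAGT in 10.3 and 20.5%.

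Another 9 words were counted without a test. ROR words (TAGGTCA or TGGGTCA), to which RORα and RORγt bind, were in 10.3 and 10.9% of the private intervals of the ILCP libraries and in 2.77 to 4.55% of those of the other 7. E-box words (CAGCTG or CAGGTG), recognised by E proteins, were lower in ILCP, with 21.1 and 20.7% against 21.5 to 34.7%. IRF words were in 2.55 and 2.66% in ILCP and in 3.47 to 5.57% in the other libraries. The ranges overlapped for T-box (GGTGTGA), AP-1 (TGAGTCA, which reads TGACTCA on the other strand), CTCF core (AGGGGGC or AGGTGGC), STAT, PAR bZIP and EBF words. AP-1 words, for example, were in 5.68 and 5.44% of the ILCP intervals and in 4.74 to 8.57% of the others.

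The 2611 ILCP-only intervals had 1940 protein-coding genes as the gene with the nearest transcript start, which is 8.85% of 21924 genes. For the CLP-only intervals it was 9.59%. Most genes, 1510, had a single ILCP-only interval, 284 had 2, 87 had 3 and 37 had 4. *Zeb2*, which encodes a zinc finger repressor of lymphoid and myeloid cells, had the most, with 8 of its 48 intervals. Of these 8, only 1 lay in the gene, and the farthest was 1307396 bp away. *Mecom*, encoding the EVI1 factor of blood stem cells, had 7 of 31, and *Pam*, encoding a peptide-amidating enzyme, had 7 of 20. *Prr30* had 7 of 11, all outside the gene and at least 27399 bp from its start, and *Sel1l*, a component of endoplasmic reticulum protein degradation, had 7 of 41.

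Next came *Klf12*, a Krüppel-like factor, *Adgrl4*, an adhesion receptor, and *Plcb4*, a phospholipase C, with 6 ILCP-only intervals each. *Trabd2b*, *Mex3c*, *Dnah5*, *Gcnt1*, *Slc10a2* and *5730522E02Rik* had 5 each. All 5 intervals of *Trabd2b* lay within the gene, whereas the 5 of *Slc10a2* were at least 905823 bp from its start. These counts follow the number of intervals that a gene is nearest to. The share of genes with an ILCP-only interval was 2.61% for genes nearest to 1 or 2 intervals, 23.5% for 6 to 10 and 69.4% for 41 or more. The nearest start is a label of position, and whether an interval acts on that gene was not measured.

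**Figure D5:**
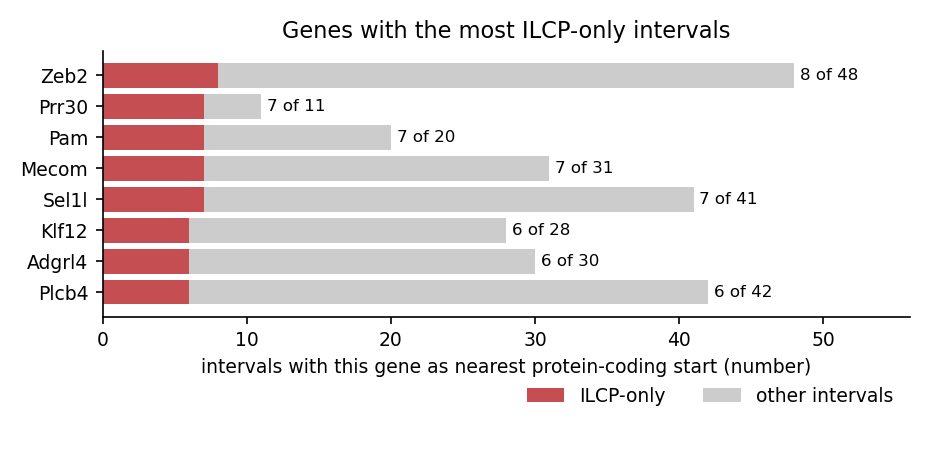
The 8 genes with at least 6 ILCP-only intervals (red) among all intervals with that gene's start as the nearest protein-coding start (red and grey together, x axis, number). *Zeb2* has 8 of 48 and *Prr30* 7 of 11.

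The highest ILCP-only peak lay in an intron of *Necab1*, at chr4:14966790-14968340, with scores of 2119.09 and 1918.72 in ILCP replicates 1 and 2 and percentiles of 98.9 and 98.6. The nearest start was that of *Pip4p2*, 103489 bp away. The next was between genes, 69965 bp upstream of *Pam* at chr1:98164918-98166277, with percentiles of 98.3 and 97.1. Introns of *Mctp1*, *Uggt2* and *Thrb*, the last encoding a thyroid hormone receptor, held the following 3, with percentiles from 95.9 to 97.4. The other 5 of the 10 highest were nearest to *Gpc5*, *Ccdc112*, *Bod1*, *Krr1* and *5730522E02Rik*, all between genes except the last, which was in an intron. None of these 10 genes is on the lists of ILC genes below. At gene starts, the highest ILCP-only interval was that of *Mfsd6* (percentiles 83.0 and 87.0), followed by *Insl5*, an insulin-like hormone gene (81.5 and 77.7), and *Calml3*, a calmodulin-like gene (77.6 and 80.7).

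ILCP-only intervals were rarely close to each other. The median gap from one to the next was 171357 bp, and within their own sets it was 139960 bp for CLP-only, 275922 bp for NKT-only and 125185 bp for CD4SP-only intervals. The largest group was 4 intervals within 28740 bp next to *Npnt*, the gene of the matrix protein nephronectin, at chr3:132858479-132887218, and no other interval lay in that stretch. Groups of 3 were found next to *Gnaz*, a G protein subunit gene, within 10730 bp, and next to *Rgs21*, a regulator of G protein signalling, within 11667 bp.

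Among 26 transcription factor genes of ILC development, 7 had an ILCP-only interval. Their intervals were 9 of the 578 nearest to the list (1.56%, against 3.66% for all intervals), and these genes are nearest to a median of 21 intervals where the median of all genes is 2, so that 7 of 26 cannot be read against 8.85% alone. *Ets1* and *Nfil3*, both needed for ILC development, had 2 intervals each. The higher *Ets1* interval was 186942 bp downstream of the gene's start, with percentiles of 41.1 and 71.9, and those of *Nfil3* were low in both libraries, 24.9 and 16.5 for the upstream one and 27.8 and 12.7 for the one in an intron. *Lmo4*, a LIM-domain cofactor, had 1 interval 78577 bp upstream (43.1 and 34.6), *Ikzf2*, encoding Helios, had 1 at 222775 bp (42.5 and 32.2), and *Maf* had 1 at 196521 bp (40.5 and 7.35). *Prdm1*, encoding Blimp-1, had 1 interval in an intron 6287 bp from the start (29.7 and 41.1). No ILCP-only interval was nearest to *Id2*, *Gata3*, *Tcf7*, *Tox*, *Rora* or *Runx3*.

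*Zbtb16* itself had a single ILCP-only interval among its 16, in an intron at chr9:48806011-48807206, 29337 bp downstream of the nearest start. Its scores were 545.74 and 330.61, and its percentiles 81.2 in ILCP replicate 1 and 64.1 in replicate 2, which ranked it 326 of 2611. It is therefore higher than most ILCP-only intervals, and it was the highest among those of the transcription factor list. It did not stand alone, since the nearest interval open in another cell type was 479 bp away. At 58.5%, the GC content of its central 200 bases was above the ILCP-only median of 46.5%.

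Of 22 genes for surface and homing molecules of ILCP, 8 had an ILCP-only interval, with 13 intervals in all. These were 4.69% of the intervals nearest to the list, near the 3.66% of all intervals, and the listed genes are nearest to a median of 10.5 intervals against 2 for all genes, where 8.85% had an ILCP-only interval. *Pdcd1*, which encodes PD-1, a marker of ILCP, had 4. The one in its intron, at chr1:94040124-94041182, was among the highest, with scores of 630.24 and 757.25, percentiles of 84.7 and 88.9 and rank 69. The other *Pdcd1* intervals were 106606 to 378263 bp upstream and lower, with percentiles from 16.8 to 60.3. *Itga4*, encoding the α4 integrin of the sorting gate, had 2, with percentiles from 10.7 to 28.5. *Cd226*, *Icos*, *S1pr1*, *Kit* and *Klrg1* had 1 each. The *Kit* interval was in an intron 25307 bp from the start (24.2 and 45.8), and that of *S1pr1*, a receptor for exit into the blood, was 19610 bp downstream (41.6 and 47.0).

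Of 18 cytokine receptor genes, nearest to a median of 6 intervals, 3 (16.7%, against 8.85% of all genes) had an ILCP-only interval. These were *Il1rl1*, encoding the IL-33 receptor ST2 (an intron, percentiles 17.6 and 20.8), *Il1r1*, the IL-1 receptor (an intron, 33.7 and 51.2), and *Tnfrsf11a*, encoding RANK, with 2 low intervals (9.21 to 20.9). They were 3.15% of the 127 intervals nearest to the list, below the 3.66% of all intervals. Of 24 effector genes, nearest to a median of 4 intervals, 4 (16.7%, against 8.85% of all genes) had ILCP-only intervals, which were 5 of 126 (3.97%, near the 3.66% of all). The 4 genes were *Il17a* and *Il17f*, which encode the cytokines IL-17A and IL-17F, and *Gzma* and *Gzmb*, which encode granzymes. The *Il17a* interval at chr1:20685392-20686671, 44874 bp upstream, was the highest of all list genes, with scores of 783.52 and 746.96, percentiles of 89.2 and 88.7 and rank 54. It lay 53364 bp from the nearest interval open in another cell type and held a Runx and a TCF/LEF word. A second interval 5144 bp upstream of *Il17a* (49.7 and 64.8) and the *Il17f* interval (51.6 and 60.8) each held a Runx and a GATA word. The *Gzma* and *Gzmb* intervals were lower, from 22.1 to 32.1, and both held a Runx word.

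Among 11 NK receptor genes in the annotation only *Ncr1*, encoding NKp46, had an ILCP-only interval. It was at the gene's start, 105 bp upstream, at chr7:4337269-4337969, and held a Runx and a ROR word, but its peaks were low (percentiles 16.0 and 5.23). Among 15 genes of the JAK, STAT and SOCS families, *Jak1* had 2 (percentiles from 19.0 to 61.2) and *Socs3*, an inhibitor of cytokine signalling, had 1 located 3411 bp downstream (23.7 and 26.8). ILCP-only intervals were 2.27% of those nearest to the NK receptor list and 2.88% of those nearest to the JAK, STAT and SOCS list, both below the 3.66% of all intervals. Over the 6 lists, 25 of 116 genes had an ILCP-only interval, and 16 had one with only the higher-scoring 50% of peaks. The 8.85% of all genes is no like background for this count, since the listed genes are nearest to a median of 3 to 21 intervals, by list, against 2. These lists were put together with earlier results of these data known, and the counts are a description.

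At the lower edge of the set, the 3 lowest ILCP-only intervals were nearest to *Prdm14*, *Fkbp4* and *Irf2*, with scores between 120.29 and 124.57 in replicate 1 and between 120.51 and 124.09 in replicate 2, next to the lowest score of 120 in the lists. Just outside the set were 538 intervals open in both ILCP libraries and in exactly 1 other library. CD4SP replicates 1 and 2 opened 20 each, NKT replicates 118 and 122, and CLP replicates 1, 157 and 100. The 3 highest of these were nearest to *Pon1* (ILCP percentiles 97.4 and 97.3), *Arrdc4* (96.7 and 97.1) and *Speer4f2* (95.7 and 93.2), and they were kept out by a peak of a CLP library with percentiles of 17.0, 23.9 and 24.2 respectively. A single ILCP library alone opened 997 intervals in replicate 1 and 954 in replicate 2.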

How the data were processed

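ATAC-seq peak lists of 9 libraries were analysed. Following the study's methods, the authors prepared nuclei from sorted cells, aligned reads of 50 bp to mm10 with bowtie, allowing 2 mismatches, and called peaks with MACS. The submitters' processing notes also name Picard, without a role, and HOMER, which the methods mention for the ChIP-seq tracks. The version and settings of MACS, and whether duplicates were removed or read ends shifted for the transposase, are not given in the sources used here. For each library the authors deposited the position of each peak with a score from the peak caller, separately for each replicate. The lowest score was 120 in every list. The methods state 30000000 to 50000000 reads per ATAC-seq library. The deposited lists do not give the number for each library, and scores were used only as ranks within a library. The 2 ChIP libraries were not analysed here.

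Peaks were merged in Python 3.11.15 (pandas 2.3.3, numpy 2.4.6), positions were counted from 1, and GRCm38.p6, the assembly of mm10, was read with pysam 0.24.0. Genes came from GENCODE M21, and each interval's midpoint was assigned to the nearest protein-coding transcript start. Words were searched on both strands in the central 200 bp. Measures per library were compared by two-sided exact permutation tests over the 9 libraries, with Benjamini-Hochberg adjustment over 6 measures and a threshold of 0.05. Wilson 95% intervals were computed with scipy 1.17.1. Merging, classes, word search and test were checked on simulated peaks and sequences.

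Named genes were the 15 with the most intervals (ties to the gene with fewer intervals) and every listed gene with an interval, apart from some that are not reported here. Named intervals were the 10 highest, the 3 highest at starts, the one at *Zbtb16*, the 3 largest groups of closely spaced ones and those at the edges of the rule. The intervals, gene lists and words were chosen with earlier results of these data known. Groups came from the sample labels, and the methods describe replicates as biological. Alternatives to the peaks used, merging, window, base composition, distance, gene assignment and libraries are described with the additional observations.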

Additional observations from a re-analysis of the deposited data

How the results depend on the processing

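The 9 results were recomputed under 159 alternatives, and each of the 6 measures kept its direction in all of its alternatives. The 2 ILCP libraries stayed outside the range of the others for Runx, ETS and TCF/LEF words in 20 of 20 alternatives and for GATA words in 19 of 20, the exception being the whole interval. With the whole interval in place of the central 200 bp, the differences were 17.1 points for Runx and 11.1 for TCF/LEF (adjusted p = 0.0833, exact permutation test), -11.9 for ETS and 7.22 for GATA (adjusted p = 0.125, exact permutation test), so that none of the 4 was called. Against CLP alone, within bone marrow, they were 26.3, 18.8, -13.3 and 17.6 points for Runx, TCF/LEF, ETS and GATA, with p = 0.1, the smallest that 10 arrangements allow (exact permutation test, adjusted p = 0.12). Labels permuted within replicate numbers (a replicate block) left the differences at 29.8, 12.7, -9.51 and 13.5 points with p = 0.0625, the smallest of 16 arrangements (exact permutation test, adjusted p = 0.0938). The correlation of same-numbered libraries' deviations from the mean of their type was 0.438 between CD4SP and NKT and -0.0374 to 0.0599 for the other pairs, and 10 of 24 comparisons were highest with the own number. The numbers were therefore not treated as pairing the libraries of all types, although the thymic libraries deviated together.

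Leaving out each library gave differences of 27.7 to 30.7 points for Runx, -9.96 to -8.75 for ETS, 11.3 to 14.3 for TCF/LEF and 12.7 to 14.8 for GATA. Adjusted p was 0.0536 without a CD4SP or NKT library, 0.0714 to 0.107 without a CLP library and 0.188 without an ILCP library (exact permutation test). The number of ILCP-only intervals then ran from 2612 to 3626, the genes of the 6 lists from 25 to 34 and the share seen again from 71.7 to 72.4%, for which neither ILCP library can be left out. The distal share passed the threshold when distal meant more than 5 kb (7.30 points) and with the starts of all annotated genes (4.36 points), both at adjusted p = 0.0333 (exact permutation test). With the higher-scoring 50% of peaks there were 1476 ILCP-only intervals and 16 list genes, and 74.8% were seen again. Standardising to 5 GC bins changed no call. The exact depth of each library is not given in the sources used here.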

Other observations

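A list of genes that mark blood stem cells and early progenitors held more ILCP-only intervals than the other marker lists, nearly all of them at *Mecom* and *Meis1*. Of 10 such genes 3 had an ILCP-only interval, and their 13 intervals were 9.77% of the 133 nearest to the list, against 3.66% over all intervals. CLP-only intervals were also nearest to 3 of the 10 genes. *Hoxa9*, *Hlf*, *Cd34*, *Flt3*, *Ly6a*, *Tal1* and *Lmo2* had no ILCP-only interval. *Mecom* had 7 and *Meis1*, a homeobox gene of stem cells, had 5, of which 2 lay in introns of the gene. The highest *Meis1* intervals had percentiles of 73.3 and 65.9 (between genes) and of 70.0 and 67.0 (in an intron). *Erg* had 1, with percentiles of 0.270 and 51.0, which lay 58858 bp from the nearest interval open in another cell type. Counting all open intervals of the list, ILCP had 60 and 58 of 133, CLP had 37, 97 and 95, and the thymic libraries had 21 to 31. *Mecom* and *Meis1* are nearest to 31 and 35 intervals, where the median gene is nearest to 2, and no test was made.

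Genes of other cell types that the bone marrow sort could hold were also nearest to ILCP-only intervals. There was 1 among 10 B cell genes (*Ebf1*, percentiles 28.1 and 14.0), 1 among 10 dendritic cell genes (*Tcf4*, 13.1 and 23.2) and 1 gene with 2 intervals among 8 genes of mast cells and basophils (*Mitf*, of which the higher had 70.7 and 69.1). These were 10% of the B cell and of the dendritic cell genes and 1 of 8 of the mast cell and basophil genes, against 8.85% of all genes, and 2.04, 1.22 and 6.06% of the lists' intervals, against 3.66% of all. None was found for 10 T cell, 12 myeloid and 8 erythroid and megakaryocyte genes. Whether cells of other types contributed peaks was not tested.

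Over the autosomes and the X chromosome, the share of ILCP-only intervals among all intervals ran from 2.51% on chromosome 11 to 4.65% on chromosome 3. It was 4.62% on chromosome 6 and 2.72% on chromosome 7. No test was made of these shares.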
